A study of Mus musculus with 12 samples.

Results

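Histone acetylation is written by acetyltransferases, removed by deacetylases and sirtuins, and bound by bromodomain proteins. These results concern 34 mouse genes for those enzymes and readers, a list of 14 acetyltransferases, 11 zinc-dependent deacetylases, 7 sirtuins and 2 acetyl readers. The 34 genes were chosen by name, and all were found among the 24341 genes of the table. RNA was sequenced from SV40-immortalised preadipocytes derived from the adipose tissue of C57Bl/6 mice. The 4 groups of 3 libraries were Acly-/- adipocytes, Aclyf/f adipocytes, Acly-/- preadipocytes and Aclyf/f preadipocytes. Aclyf/f cells carry loxP-flanked Acly and are the controls, and every group shared the immortalisation and the culture in DMEM with 10% FBS. Preadipocytes were harvested on day 0, and adipocytes on day 4 after an adipogenic cocktail that included rosiglitazone, an activator of PPARγ. How Acly was deleted, which exons were lost, and whether the 3 libraries of a group are separate cultures are not stated by the labels, and p-values thus reflect the spread between the deposited libraries alone, which may be technical.

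Acly encodes ATP citrate lyase, which makes acetyl-CoA from citrate outside mitochondria. Acetyl-CoA is the acetyl donor of all histone acetyltransferases, which loosen chromatin by neutralising lysines and create binding sites for bromodomains. The zinc-dependent deacetylases take the acetyl group off again by hydrolysis, whereas sirtuins consume NAD+ to do so. In adipocytes several of these proteins act as coactivators or corepressors of PPARγ, the nuclear receptor that drives adipogenesis.

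Levels are FPKM, in which the fragments of a gene are divided by its transcript length in kilobases and by the mapped fragments of the library, scaled by a constant, and are given per library in the order of replicates 1, 2 and 3, or as mean ± SD with n = 3. Acly itself stood at 13.2, 12.8 and 11.02 FPKM in Acly-/- adipocytes, against 814, 722 and 724 FPKM in Aclyf/f adipocytes. In preadipocytes it stood at 11.9, 12.5 and 11.9 FPKM without Acly, against 89.5, 86.2 and 84.9 FPKM with it, so every library matched its genotype label. Depth, estimated from the smallest steps between low values, was 7.08e+06 to 1.35e+07 fragments per library. Correlation across genes was 0.986 to 0.993 within groups and 0.819 to 0.964 between groups. Acly-/- preadipocyte library 3 stood apart in that the small nucleolar RNA entry Snord12 took 8.90% of its summed FPKM, and the calls that were lost without this library are named beside their genes. The 8 adipocyte markers summed to 6592 to 8183 FPKM in Acly-/- adipocytes, against 10972 to 11761 FPKM in Aclyf/f adipocytes. The 7 preadipocyte and fibroblast markers summed to 994 to 1020 FPKM in Acly-/- adipocytes, against 272 to 398 FPKM in Aclyf/f adipocytes. In preadipocytes the adipocyte markers summed to 642 to 704 FPKM without Acly and 1079 to 1147 FPKM with it, and the preadipocyte markers to 2281 to 3165 FPKM without Acly and 1970 to 2299 FPKM with it. A few abundant genes lead these sums. In adipocytes Fabp4 averaged 6113 FPKM without Acly and 8835 FPKM with it, Cfd 18.6 and 272 FPKM, and Pparg 148 and 161 FPKM. In preadipocytes Pdgfra was lower without Acly (72.1 against 131 FPKM) and Col3a1 level (722 and 722 FPKM). Ly6a (834 against 467 FPKM) and Col1a1 (1087 against 789 FPKM) were higher there without Acly. The leukocyte marker Ptprc and the adipocyte marker Lep sat on the table's floor of 0.01 FPKM in all 12 libraries, and none of the 6 marker lists for other cell types summed to over 8.94 FPKM in any library. These marker levels move with both genotype and differentiation, their part in the results below was not tested, and in bulk RNA fewer cells of a type cannot be told apart from less RNA per cell.

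Lower in Acly-/- than in Aclyf/f adipocytes were the sirtuins Sirt3, Sirt5 and Sirt6 and the deacetylases Hdac11, Hdac5, Hdac6 and Hdac3. The acetyltransferases Hat1 and Taf1, the coactivator Ncoa1 and the reader Brd3 were also lower there. Higher there were Kat2a, Sirt1, Brd2, Kat6b and Kat6a. The 14 listed acetyltransferases, Ncoa1 among them, thus gave 3 calls in each direction, and the 2 acetyl readers 1 in each. Of 33 members tested, 5 were higher and 11 lower by limma at an adjusted p under 0.05, which is 48.5% of them, against 54.8% of all 11777 genes tested (25.6% higher and 29.2% lower). In Acly-/- preadipocytes 6 were higher and 9 lower (45.5%), against 42.2% of all genes tested (19.7% higher and 22.4% lower). With differentiation 8 were higher and 14 lower in Acly-/- cells (66.7%), against 61.4% of all genes (30.4% higher and 31% lower), and 13 were higher and 13 lower in Aclyf/f cells (78.8%), against 72.5% of all genes (36.5% higher and 36% lower). The change with differentiation itself differed between genotypes for 15 members (45.5%), against 50.2% of all genes. It was lower without Acly in 13 (39.4% of the 33 tested, against 26.4% of all genes) and higher in 2 (6.06%, against 23.7%). Under the alternative fits the 13 became 10 to 12. The libraries of the compared groups did not overlap for 18 of the 33 members for loss of Acly in adipocytes and 18 in preadipocytes, against 63.2% and 49.9% of all genes. With differentiation they did not overlap for 22 in Acly-/- cells and 27 in Aclyf/f cells, against 64.6% and 75.7% of all genes. With the background this high, these counts say little about the list as a whole, and what follows is about which members moved and by how much. When each library was scaled to the same FPKM sum, 2 members rather than 5 were higher in Acly-/- adipocytes and 3 rather than 6 in Acly-/- preadipocytes, and the share of upward calls among all genes called was 36.4% and 34.7%, against 46.7% and 46.8% on the deposited scale. That scaling also moved the median log2 fold change of all genes tested to -0.09 at both stages, against -0.02 and -0.01 on the deposited scale. Without Aclyf/f preadipocyte library 3, 5 rather than 9 members were lower in Acly-/- preadipocytes, and without Acly-/- adipocyte library 3 the differentiation change was higher without Acly in 4 members rather than 2.

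**Figure D1:**
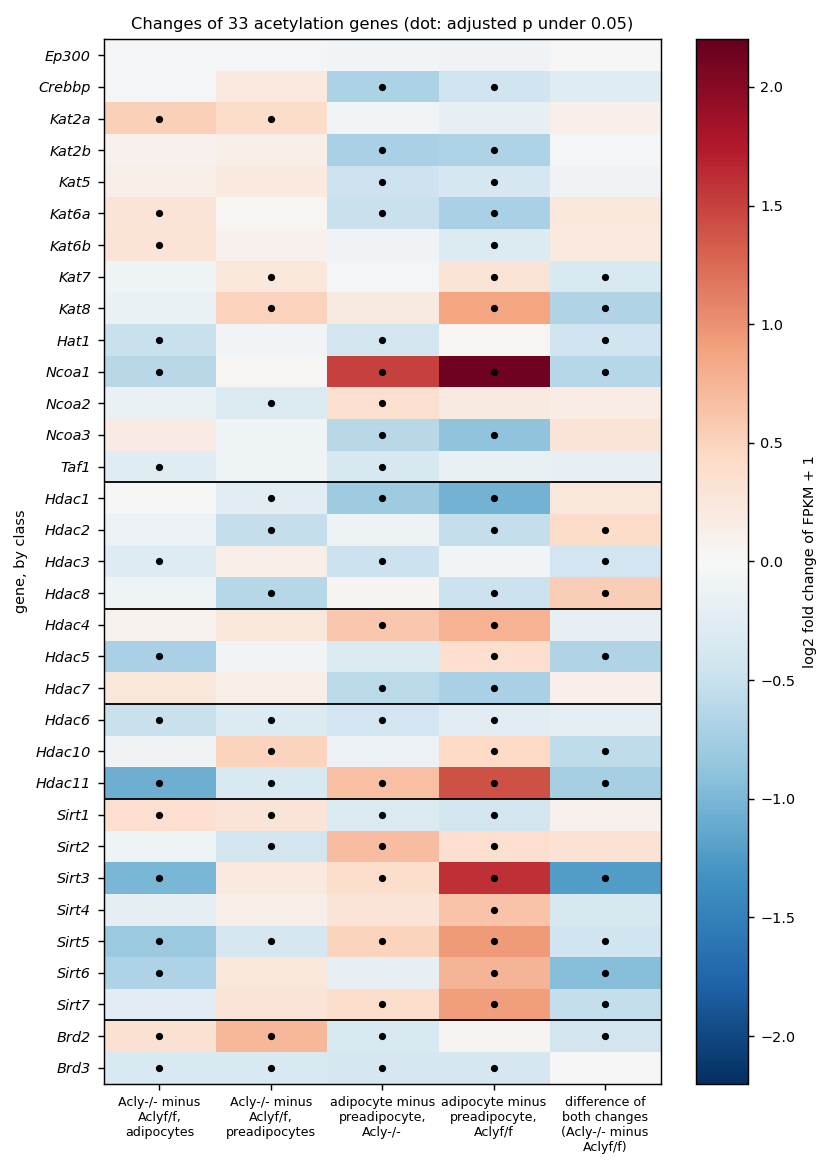
Map of the log2 fold changes (log2 of FPKM + 1) of the 33 tested members, 1 row per gene in order of class, with 1 column for each genotype comparison, each differentiation comparison and the difference between both differentiation changes; red is higher in the group named first, blue is lower, and marked cells have an adjusted p under 0.05. Ncoa1, Sirt3 and Hdac11 stand out with log2 fold changes of 2.14, 1.61 and 1.40 in Aclyf/f differentiation, and Hdac11 and Sirt3 are lowest in the comparison of adipocytes, at -1.07 and -1.01.

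All 33 tested members reached 1 FPKM in all 12 libraries, and their levels ran between 1.92 and 125 FPKM. Hdac9, a class IIa deacetylase, was the untested member, at 0.01 to 0.235 FPKM in all libraries. Most changes were small: the median absolute log2 fold change of the members was 0.25 in adipocytes and 0.25 in preadipocytes for loss of Acly, against 0.30 and 0.23 over all genes tested. For differentiation it was 0.39 in Acly-/- cells and 0.44 in Aclyf/f cells, against 0.35 and 0.50 over all genes. A log2 fold change of at least 1 in size was reached by 2 members for loss of Acly in adipocytes (Hdac11 and Sirt3), none in preadipocytes, 1 for differentiation of Acly-/- cells (Ncoa1) and 4 for differentiation of Aclyf/f cells (Ncoa1, Sirt3, Hdac11 and Hdac1), out of 33 tested. Of all genes tested, 8.08%, 5.27%, 13.2% and 23.7% reached it in those comparisons, in the same order.

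Promoters of the 3 members with the largest rise in Aclyf/f differentiation are shown because the same genes were also lower in Acly-/- adipocytes. Each stretch runs from 250 bases before to 50 bases after an annotated start, 5′ to 3′ on the gene's strand, from RefSeq on GRCm38.p6 (mm10). Capitals mark GGGCGG, the GC box bound by Sp1-family factors, and AGGTCA, the nuclear receptor half-site, on either strand.
Ncoa1 (chr12:4477133-4477432, minus strand): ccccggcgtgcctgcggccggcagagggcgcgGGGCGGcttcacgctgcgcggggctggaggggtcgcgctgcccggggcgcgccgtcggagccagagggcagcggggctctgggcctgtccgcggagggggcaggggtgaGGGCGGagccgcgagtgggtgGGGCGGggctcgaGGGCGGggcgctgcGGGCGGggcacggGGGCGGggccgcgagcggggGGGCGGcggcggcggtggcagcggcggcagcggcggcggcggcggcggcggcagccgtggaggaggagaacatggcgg
Sirt3, upstream start (chr7:140882260-140882559, minus strand): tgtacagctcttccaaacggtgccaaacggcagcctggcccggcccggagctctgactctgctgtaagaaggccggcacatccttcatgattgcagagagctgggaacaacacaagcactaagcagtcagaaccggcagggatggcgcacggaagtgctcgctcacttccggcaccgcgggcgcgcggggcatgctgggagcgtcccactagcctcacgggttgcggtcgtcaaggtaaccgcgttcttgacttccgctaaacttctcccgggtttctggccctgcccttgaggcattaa
Sirt3, downstream start (chr7:140881820-140882119, minus strand): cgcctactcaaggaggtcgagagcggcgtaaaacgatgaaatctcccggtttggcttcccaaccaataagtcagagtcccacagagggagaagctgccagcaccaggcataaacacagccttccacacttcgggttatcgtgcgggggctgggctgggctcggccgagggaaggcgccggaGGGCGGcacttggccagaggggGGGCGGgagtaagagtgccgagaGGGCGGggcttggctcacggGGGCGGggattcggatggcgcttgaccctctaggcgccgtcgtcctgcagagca
Hdac11 (chr6:91156565-91156864, plus strand): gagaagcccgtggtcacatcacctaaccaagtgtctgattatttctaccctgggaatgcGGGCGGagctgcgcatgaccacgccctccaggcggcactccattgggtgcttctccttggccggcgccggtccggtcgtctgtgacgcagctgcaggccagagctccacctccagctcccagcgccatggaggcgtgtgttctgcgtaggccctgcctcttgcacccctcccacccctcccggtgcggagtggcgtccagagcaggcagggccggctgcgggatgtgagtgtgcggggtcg
The Ncoa1 window holds 7 GC boxes and 84.7% G and C, more than 99.8% of the RefSeq promoters, whose median is 52.7%. The upstream Sirt3 window holds no GC box, the downstream one holds 4, and the Hdac11 window holds 1. None of these 4 windows holds AGGTCA. RefSeq promoters were matched for 28 of the 34 members. A GC box lies in at least 1 promoter of 22 of them (78.6%), on either strand, against 38.2% of all genes with a RefSeq promoter, AGGTCA in 6 (21.4%) against 18.1%, and CACGTG, the E-box of MYC and ChREBP, in 4 (14.3%) against 8.09%. All genes with a RefSeq promoter number 27025, with 32851 promoters, and include genes not tested here, while the 28 members have 40 promoters. No share was computed for expressed genes alone, so these shares do not compare like sets. A match or its absence describes the letters of these windows only.

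The p160 coactivator Ncoa1 (SRC-1), which binds PPARγ and other nuclear receptors and recruits acetyltransferases, showed the largest change of any member with differentiation. It lies on chromosome 12 at 4247362 to 4477182 (mm10). Its level was 9.70, 9.97 and 9.06 FPKM in Acly-/- adipocytes, against 14.4, 16.0 and 15.0 FPKM in Aclyf/f adipocytes. It was 2.69, 3.09 and 2.398 FPKM in Acly-/- preadipocytes, against 2.14, 3.09 and 2.79 FPKM in Aclyf/f preadipocytes. All adipocyte libraries lay above all preadipocyte libraries, and all Acly-/- adipocyte libraries lay below all Aclyf/f adipocyte libraries, while the preadipocyte groups overlapped. Ncoa1 rose 3.51-fold with differentiation in Acly-/- cells (log2 fold change 1.51, SE 0.11, adjusted p = 3.87e-08) and 5.66-fold in Aclyf/f cells (log2 fold change 2.14, SE 0.11, adjusted p = 3.97e-10). It was 1.58-fold lower in Acly-/- adipocytes (log2 fold change -0.61, SE 0.11, adjusted p = 0.000289).

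The other p160 coactivators moved differently. Ncoa3 (SRC-3) stood at 7.44, 7.95 and 5.96 FPKM in Acly-/- adipocytes, against 6.11, 5.88 and 6.36 FPKM in Aclyf/f adipocytes. Its preadipocyte levels were 11.6, 10.8 and 11.6 FPKM in Acly-/- preadipocytes, against 12.8, 11.9 and 11.9 FPKM in Aclyf/f preadipocytes. Ncoa3 fell with differentiation in both genotypes, by 0.61 on the log2 scale in Acly-/- cells (adjusted p = 6.69e-05) and by 0.89 in Aclyf/f cells (adjusted p = 1.09e-06), and the adipocyte libraries all lay below the preadipocyte libraries. Ncoa2 (TIF2) averaged 7.46 ± 0.404 FPKM in Acly-/- preadipocytes and 9.52 ± 0.316 FPKM in Aclyf/f preadipocytes, a fall of 0.31 on the log2 scale (adjusted p = 0.0198). That call was lost without Acly-/- preadipocyte library 3 (adjusted p = 0.0598) and without Aclyf/f preadipocyte libraries 2 (0.0502) or 3 (0.0634). In Acly-/- cells Ncoa2 rose with differentiation, to 9.87 ± 1.31 FPKM in adipocytes, with a log2 fold change of 0.36 (adjusted p = 0.00633).

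Kat2a (GCN5), the catalytic subunit of the SAGA and ATAC complexes, was higher without Acly at both stages and was not called with differentiation in either genotype. The gene lies on chromosome 11 at 100704746 to 100712467, 176745 bases from Acly on the same chromosome. Its level was 23.0, 22.5 and 21.7 FPKM in Acly-/- adipocytes, against 17.3, 14.5 and 14.1 FPKM in Aclyf/f adipocytes. It was 22.8, 22.8 and 24.9 FPKM in Acly-/- preadipocytes, against 17.9, 18.5 and 16.1 FPKM in Aclyf/f preadipocytes. Every Acly-/- library lay above every Aclyf/f library, at both stages. The difference was 1.46-fold in adipocytes (log2 fold change 0.53, SE 0.09, adjusted p = 0.000162) and 1.34-fold in preadipocytes (log2 fold change 0.41, SE 0.09, adjusted p = 0.00182). With differentiation of Aclyf/f cells its log2 fold change was -0.19 (adjusted p = 0.0647), or -0.25 (adjusted p = 0.0173) after quantile normalization and -0.21 (adjusted p = 0.0433) with median-of-ratios scaling, and it was called without Aclyf/f adipocyte library 1 (-0.27, adjusted p = 0.00903) or Aclyf/f preadipocyte library 3 (-0.24, adjusted p = 0.0359). Its close paralog Kat2b (PCAF) showed the other pattern and fell with differentiation. Kat2b stood at 29.5, 27.2 and 27.8 FPKM in Acly-/- adipocytes, against 24.1, 27.5 and 27.7 FPKM in Aclyf/f adipocytes, and at 49.1, 52.8 and 39.5 FPKM in Acly-/- preadipocytes, against 41.5, 42.5 and 44.4 FPKM in Aclyf/f preadipocytes. All adipocyte libraries were below all preadipocyte libraries, with log2 fold changes of -0.71 (adjusted p = 2.32e-05) in Acly-/- cells and -0.68 (adjusted p = 2.42e-05) in Aclyf/f cells, and neither genotype comparison passed the test, though without Acly-/- preadipocyte library 3 the preadipocyte value was 0.25 (adjusted p = 0.0252).

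Among the paired acetyltransferases Crebbp (CBP) and Ep300 (p300), which acetylate histone H3 at enhancers, Crebbp fell with differentiation and Ep300 was called in no comparison. Crebbp stood at 8.55, 8.75 and 7.12 FPKM in Acly-/- adipocytes, against 8.29, 8.63 and 8.40 FPKM in Aclyf/f adipocytes. Its preadipocyte levels were 13.6, 13.4 and 14.3 FPKM in Acly-/- preadipocytes, against 11.2, 11.7 and 12.4 FPKM in Aclyf/f preadipocytes. The fall was 0.69 on the log2 scale in Acly-/- cells (adjusted p = 6.76e-06) and 0.43 in Aclyf/f cells (adjusted p = 0.000332), with no overlap between stages. Ep300 averaged 17.8 ± 2.00 FPKM in Acly-/- adipocytes, 18.1 ± 1.10 in Aclyf/f adipocytes, 18.5 ± 1.69 in Acly-/- preadipocytes and 19.1 ± 0.274 in Aclyf/f preadipocytes. Its adjusted p was between 0.5 and 0.938 over the 5 comparisons.

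The MYST acetyltransferases split by stage and genotype. Kat6a (MOZ) and Kat6b (MORF), which acetylate histone H3 in BRPF complexes, were both higher in Acly-/- adipocytes than in Aclyf/f adipocytes. Kat6b stood at 8.35, 8.18 and 7.69 FPKM in Acly-/- adipocytes, against 5.95, 6.52 and 6.53 FPKM in Aclyf/f adipocytes, and at 8.18, 9.28 and 8.42 FPKM in Acly-/- preadipocytes, against 7.46, 8.28 and 8.41 FPKM in Aclyf/f preadipocytes. Its adipocyte groups did not overlap (log2 fold change 0.31, SE 0.08, adjusted p = 0.00541), and its preadipocyte groups did. Kat6a stood at 14.1, 14.2 and 11.6 FPKM in Acly-/- adipocytes, against 11.1, 10.7 and 10.5 FPKM in Aclyf/f adipocytes, and at 19.0, 21.1 and 17.2 FPKM in Acly-/- preadipocytes, against 17.5, 18.2 and 19.6 FPKM in Aclyf/f preadipocytes. Kat6a fell with differentiation in both genotypes, by 0.49 on the log2 scale in Acly-/- cells (adjusted p = 0.000423) and by 0.72 in Aclyf/f cells (adjusted p = 9.22e-06). Its higher level in Acly-/- adipocytes, 0.28 with an adjusted p of 0.0223, was no longer called on leaving out either of Acly-/- adipocyte libraries 1 and 2 (adjusted p = 0.0876 and 0.0866) or of Aclyf/f adipocyte libraries 2 and 3 (0.0587 and 0.0625), and at the same FPKM sum its adjusted p was 0.196. At that scaling the adjusted p of Kat6b was 0.0730.

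Kat8 (MOF), which acetylates histone H4 lysine 16, rose with differentiation in Aclyf/f cells and varied among preadipocyte libraries. Kat8 stood at 10.2, 10.96 and 10.1 FPKM in Acly-/- adipocytes, against 11.8, 10.8 and 12.4 FPKM in Aclyf/f adipocytes. Its preadipocyte levels were 7.22, 11.2 and 8.61 FPKM in Acly-/- preadipocytes, against 6.86, 3.88 and 7.65 FPKM in Aclyf/f preadipocytes. The Aclyf/f adipocyte libraries lay above the Aclyf/f preadipocyte libraries (log2 fold change 0.87, SE 0.18, adjusted p = 0.000739), whereas the 2 preadipocyte groups overlapped. The higher level in Acly-/- preadipocytes, 0.51 on the log2 scale with an adjusted p of 0.0374, was lost in 7 of 20 alternatives, among them leaving out Acly-/- preadipocyte library 2 (0.36, adjusted p = 0.156), Acly-/- preadipocyte library 3 (0.54, adjusted p = 0.0672) or Aclyf/f preadipocyte library 2 (0.26, adjusted p = 0.165). Kat5 (TIP60), the NuA4 acetyltransferase, fell with differentiation by 0.45 in Acly-/- cells and by 0.37 in Aclyf/f cells (adjusted p = 0.00128 and 0.00421). Kat7 (HBO1), an acetyltransferase of histone H3 lysine 14, was 0.23 higher in Acly-/- preadipocytes (adjusted p = 0.0149), a call lost without Acly-/- preadipocyte library 1 (adjusted p = 0.0512) or Aclyf/f preadipocyte library 3 (0.0540) and at the same FPKM sum (0.273). With differentiation Kat7 rose in Aclyf/f cells by 0.30 (adjusted p = 0.00136), and its value in Acly-/- cells was -0.03 (adjusted p = 0.701).

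Hat1, which acetylates newly made histone H4 before its deposition, was lower without Acly in adipocytes, at 51.4, 48.9 and 58.1 FPKM in Acly-/- adipocytes, against 66.4, 77.2 and 80.8 FPKM in Aclyf/f adipocytes (log2 fold change -0.49, SE 0.10, adjusted p = 0.00116). Those groups did not overlap, and in preadipocytes they did, at 69.9 ± 8.56 FPKM without Acly and 72.3 ± 4.59 FPKM with it. The locus listed for Hat1 spans 514599 bases on chromosome 2, 9.83 times the RefSeq gene of 52363 bases, so what was counted under this symbol is uncertain. The next largest departures from the RefSeq span were those of Brd3 (0.485 times), Sirt4 (0.528), Sirt3 (1.34) and Kat8 (1.32). What these departures do to the levels was not tested. Taf1, a TFIID subunit with bromodomains, was -0.27 on the log2 scale in Acly-/- against Aclyf/f adipocytes (adjusted p = 0.0356). The Taf1 call was lost in 7 of 20 alternatives, including the loss of Acly-/- adipocyte libraries 2 or 3 (adjusted p = 0.0621 and 0.123) or Aclyf/f adipocyte libraries 2 or 3 (0.0857 and 0.107). Summed over all 14 acetyltransferases, FPKM was 242 ± 5.42 in Acly-/- adipocytes, 261 ± 11.5 in Aclyf/f adipocytes, 297 ± 21.8 in Acly-/- preadipocytes and 280 ± 8.43 in Aclyf/f preadipocytes. The sums include Hat1, whose count is uncertain, at 52.8 FPKM in Acly-/- and 74.8 FPKM in Aclyf/f adipocytes. That gap is larger than the gap between the adipocyte sums. Of the 14, 3 were higher and 3 lower in Acly-/- adipocytes, 3 higher and 1 lower in Acly-/- preadipocytes, 2 higher and 7 lower with differentiation of Acly-/- cells, and 3 higher and 6 lower with differentiation of Aclyf/f cells. Of all genes tested, 25.6% were higher and 29.2% lower in Acly-/- adipocytes, 19.7% higher and 22.4% lower in Acly-/- preadipocytes, 30.4% higher and 31% lower with differentiation of Acly-/- cells, and 36.5% higher and 36% lower with differentiation of Aclyf/f cells.

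**Figure D2:**
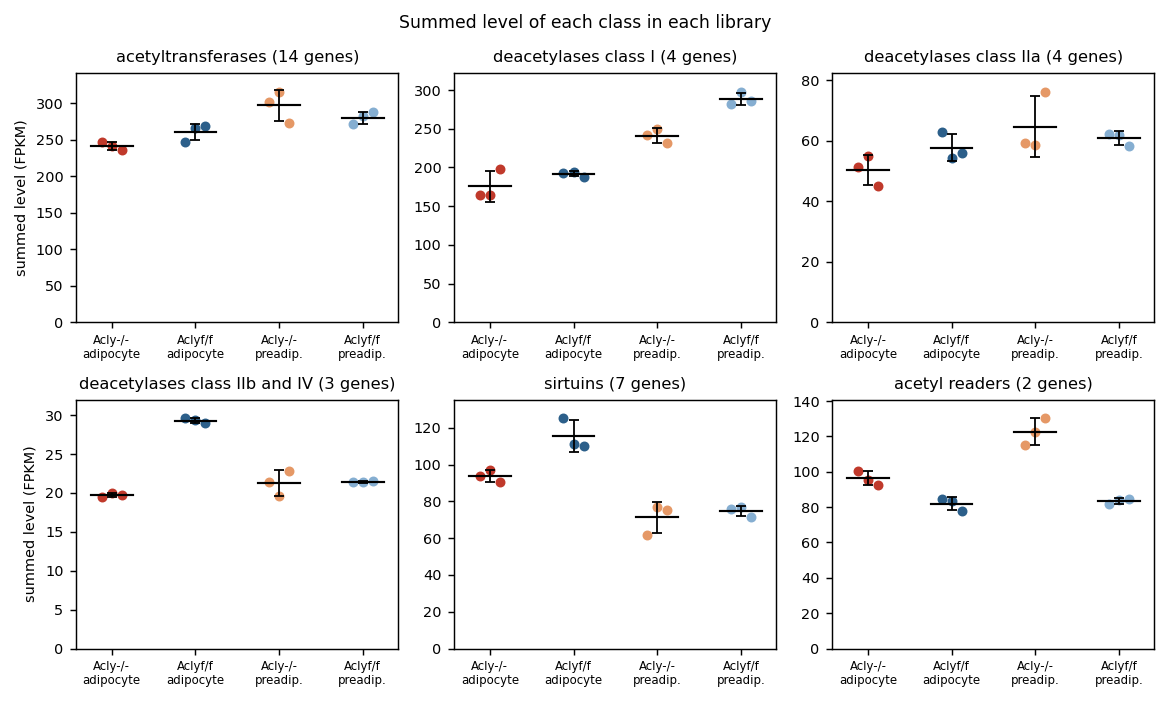
Summed FPKM of each class in each library (points), with the group mean (line) and SD (bars, n = 3), for acetyltransferases, class I, class IIa, class IIb with IV deacetylases, sirtuins and acetyl readers; all axes start at 0. Class I deacetylases lie highest in Aclyf/f preadipocytes (289 ± 8.14 FPKM), and sirtuins (116 ± 8.48) and class IIb with IV deacetylases (29.3 ± 0.340) lie highest in Aclyf/f adipocytes. The acetyltransferase sum includes Hat1, whose count is uncertain.

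Class I deacetylases are Hdac1, Hdac2 and Hdac3, nuclear catalytic subunits of the NuRD, Sin3, CoREST or NCoR complexes, and Hdac8. They fell with differentiation for 2 of 4 genes in Acly-/- cells and 3 of 4 in Aclyf/f cells. In Acly-/- preadipocytes 3 of the 4 were lower than in Aclyf/f preadipocytes, 1 of them, Hdac1, by a call lost in 6 of 20 alternatives. Of all genes tested, 31% fell with differentiation in Acly-/- cells, 36% fell in Aclyf/f cells, and 22.4% were lower in Acly-/- preadipocytes. Their summed FPKM was 176 ± 19.5 in Acly-/- adipocytes, 192 ± 3.32 in Aclyf/f adipocytes, 241 ± 9.45 in Acly-/- preadipocytes and 289 ± 8.14 in Aclyf/f preadipocytes. Hdac1 (chromosome 4 at 129516104 to 129542646) carried most of the difference between stages. It stood at 54.0, 54.3 and 66.1 FPKM in Acly-/- adipocytes, against 61.7, 57.0 and 54.9 FPKM in Aclyf/f adipocytes, and at 99.1, 107 and 94.9 FPKM in Acly-/- preadipocytes, against 115, 125 and 118 FPKM in Aclyf/f preadipocytes. No adipocyte library reached any preadipocyte library. Hdac1 was 1.72-fold lower after differentiation in Acly-/- cells (log2 fold change -0.78, SE 0.09, adjusted p = 3.09e-06) and 2.07-fold lower in Aclyf/f cells (log2 fold change -1.03, SE 0.09, adjusted p = 9.75e-08). Its lower level in Acly-/- preadipocytes, -0.25 on the log2 scale (adjusted p = 0.0304), was lost without Acly-/- preadipocyte libraries 1 or 3 (adjusted p = 0.0675 and 0.0911) and without Aclyf/f preadipocyte libraries 2 or 3 (0.105 and 0.0624).

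Hdac2, the partner of Hdac1 in those complexes, was lower in Acly-/- preadipocytes, at 66.0, 65.4 and 55.1 FPKM in Acly-/- preadipocytes, against 87.3, 91.5 and 90.6 FPKM in Aclyf/f preadipocytes. In adipocytes it stood at 53.8, 52.6 and 65.7 FPKM in Acly-/- adipocytes, against 61.2, 64.1 and 61.7 FPKM in Aclyf/f adipocytes. The preadipocyte groups did not overlap and the adipocyte groups did, library 3 of Acly-/- adipocytes being the highest of its group. Hdac2 was 1.45-fold lower in Acly-/- preadipocytes (log2 fold change -0.53, SE 0.09, adjusted p = 0.000408) and fell with differentiation in Aclyf/f cells (log2 fold change -0.52, SE 0.09, adjusted p = 0.000152). Hdac8, the class I member that acts outside those complexes, followed Hdac2. It stood at 10.5, 10.5 and 13.3 FPKM in Acly-/- adipocytes, against 10.6, 13.4 and 12.9 FPKM in Aclyf/f adipocytes, and at 11.9, 10.5 and 10.3 FPKM in Acly-/- preadipocytes, against 15.8, 18.0 and 18.6 FPKM in Aclyf/f preadipocytes. Hdac8 was 1.60-fold lower in Acly-/- preadipocytes, with no overlap (log2 fold change -0.64, SE 0.11, adjusted p = 0.000461), and fell with differentiation in Aclyf/f cells (log2 fold change -0.48, SE 0.11, adjusted p = 0.00151). Neither passed the test with differentiation of Acly-/- cells, where the log2 fold changes were -0.12 (adjusted p = 0.28) for Hdac2 and 0.06 (adjusted p = 0.644) for Hdac8. Without Acly-/- adipocyte library 3, however, Hdac2 was called lower with differentiation of Acly-/- cells (-0.22, adjusted p = 0.0397) and in Acly-/- against Aclyf/f adipocytes (-0.23, adjusted p = 0.0373).

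Hdac3, the enzyme of the NCoR and SMRT corepressors that hold back PPARγ, was lower in Acly-/- adipocytes. It stood at 45.8, 46.9 and 53.0 FPKM in Acly-/- adipocytes, against 59.6, 59.6 and 58.4 FPKM in Aclyf/f adipocytes, with no overlap (log2 fold change -0.28, SE 0.07, adjusted p = 0.00445). In preadipocytes it averaged 67.8 ± 3.29 FPKM without Acly and 61.9 ± 3.15 FPKM with it, and did not pass the test. With differentiation Hdac3 fell in Acly-/- cells (-0.48, adjusted p = 5.94e-05), and in Aclyf/f cells its log2 fold change was -0.06 (adjusted p = 0.446), or -0.19 (adjusted p = 0.0163) after quantile normalization.

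**Figure D3:**
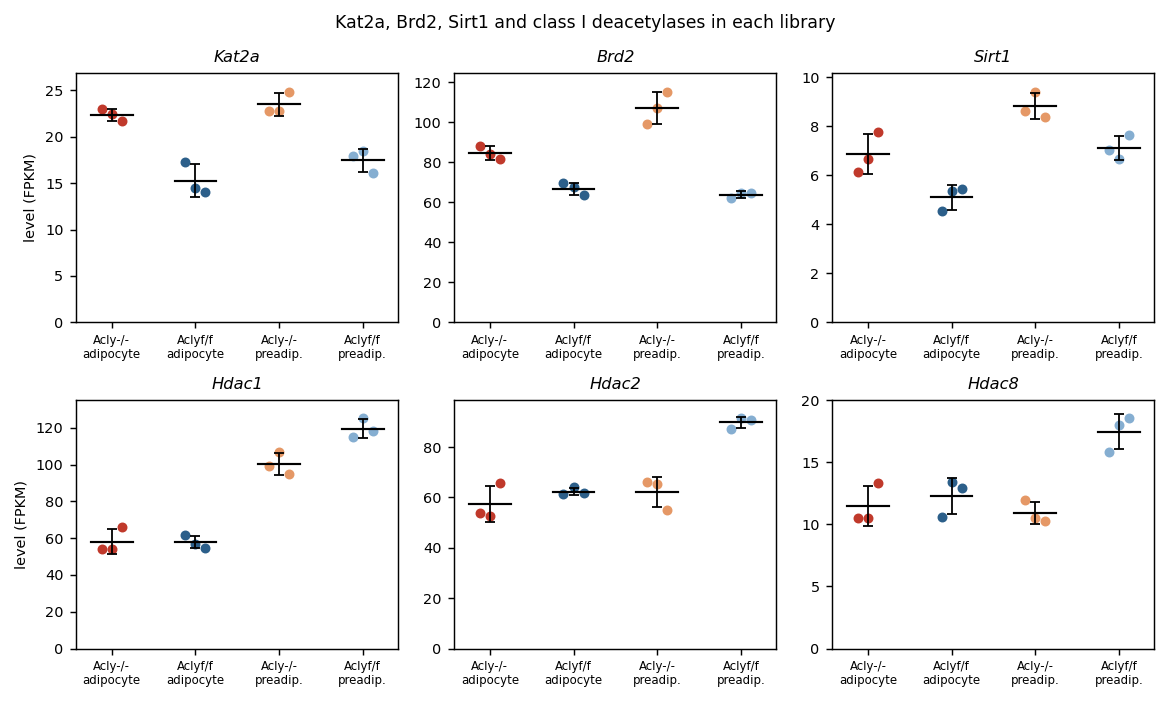
FPKM of Kat2a, Brd2, Sirt1, Hdac1, Hdac2 and Hdac8 in each library (points), with the group mean (line) and SD (bars, n = 3), all axes starting at 0. Kat2a and Brd2 lie higher in Acly-/- than in Aclyf/f libraries at both stages, Sirt1 does so with adjusted p-values of 0.00681 and 0.0372, and Hdac2 and Hdac8 are lower in Acly-/- than in Aclyf/f preadipocytes while the adipocyte groups overlap.

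Class IIa deacetylases, which shuttle between nucleus and cytoplasm and bind MEF2 factors, moved in opposite directions with differentiation. Hdac4 rose and Hdac7 fell in both genotypes. Hdac4 stood at 9.84, 8.23 and 7.17 FPKM in Acly-/- adipocytes, against 8.36, 7.24 and 8.005 FPKM in Aclyf/f adipocytes, and at 5.03, 4.96 and 5.63 FPKM in Acly-/- preadipocytes, against 4.20, 3.61 and 4.86 FPKM in Aclyf/f preadipocytes. Adipocyte libraries lay above preadipocyte libraries throughout (log2 fold change 0.59, SE 0.12, adjusted p = 0.000534 in Acly-/- cells, and log2 fold change 0.77, SE 0.12, adjusted p = 4.02e-05 in Aclyf/f cells). Hdac7 stood at 23.3, 27.5 and 23.0 FPKM in Acly-/- adipocytes, against 23.1, 19.4 and 19.5 FPKM in Aclyf/f adipocytes, and at 34.9, 34.4 and 43.4 FPKM in Acly-/- preadipocytes, against 34.2, 35.9 and 32.5 FPKM in Aclyf/f preadipocytes. Its adipocyte libraries lay below its preadipocyte libraries throughout (log2 fold change -0.59, SE 0.10, adjusted p = 0.000241 in Acly-/- cells, and log2 fold change -0.70, SE 0.10, adjusted p = 3.2e-05 in Aclyf/f cells). Neither Hdac4 nor Hdac7 passed the test for genotype at either stage, though Hdac7 was called higher in Acly-/- adipocytes after quantile normalization (0.29, adjusted p = 0.0243) and without Acly-/- preadipocyte library 3 (0.24, adjusted p = 0.0295) or Aclyf/f adipocyte library 1 (0.32, adjusted p = 0.0247). Hdac4 was called higher in Acly-/- preadipocytes without Aclyf/f preadipocyte library 3 (0.34, adjusted p = 0.0491).

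Hdac5, the third class IIa member tested, was lower in Acly-/- adipocytes, at 18.0, 19.2 and 14.9 FPKM in Acly-/- adipocytes, against 31.2, 27.8 and 28.3 FPKM in Aclyf/f adipocytes. Its preadipocyte levels were 19.2, 19.0 and 27.0 FPKM in Acly-/- preadipocytes, against 23.9, 22.3 and 20.9 FPKM in Aclyf/f preadipocytes, and those groups overlapped, library 3 of Acly-/- preadipocytes being the highest. Hdac5 was 1.67-fold lower in Acly-/- adipocytes (log2 fold change -0.72, SE 0.13, adjusted p = 0.000311). It rose with differentiation in Aclyf/f cells by 0.37 (adjusted p = 0.0181), a call lost without Aclyf/f adipocyte library 1 (0.31, adjusted p = 0.0618) or Aclyf/f preadipocyte library 3 (0.32, adjusted p = 0.0633), and its log2 fold change in Acly-/- cells was -0.29 (adjusted p = 0.0572). That Acly-/- value was called in 6 alternatives, with adjusted p-values of 0.0447 to 0.0495 under 3 other scalings and 0.0404, 0.0355 and 0.0321 without Acly-/- adipocyte library 2 and Acly-/- preadipocyte libraries 1 and 2. Hdac9, at 0.01 to 0.235 FPKM, averaged 0.0390 FPKM in Acly-/- adipocytes, 0.0776 in Aclyf/f adipocytes, 0.175 in Acly-/- preadipocytes and 0.0554 in Aclyf/f preadipocytes, levels that rest on few fragments.

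Hdac11, the sole class IV deacetylase, known also to remove fatty acyl groups from lysines, had the largest fall of any member in Acly-/- adipocytes. It lies on chromosome 6 at 91156815 to 91174683. It stood at 4.11, 4.92 and 4.41 FPKM in Acly-/- adipocytes, against 10.3, 10.3 and 10.8 FPKM in Aclyf/f adipocytes, and at 1.92, 2.81 and 2.69 FPKM in Acly-/- preadipocytes, against 2.84, 3.51 and 3.72 FPKM in Aclyf/f preadipocytes. Aclyf/f adipocytes lay above every other group, and Acly-/- adipocytes above both preadipocyte groups. Hdac11 was 2.34-fold lower in Acly-/- adipocytes (log2 fold change -1.07, SE 0.11, adjusted p = 3.99e-06). With differentiation it rose 1.81-fold in Acly-/- cells (log2 fold change 0.67, SE 0.11, adjusted p = 0.000189) and 3.12-fold in Aclyf/f cells (log2 fold change 1.40, SE 0.11, adjusted p = 8.4e-08). Its lower level in Acly-/- preadipocytes (-0.33, adjusted p = 0.0328) was lost without Acly-/- preadipocyte library 1 (adjusted p = 0.140) or Aclyf/f preadipocyte libraries 2 (0.0937) or 3 (0.122).

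The class IIb enzymes Hdac6, the cytoplasmic tubulin deacetylase, and Hdac10, a polyamine deacetylase, differed from each other. Hdac6 was lower in Acly-/- cells at both stages, at 6.64 ± 0.353 FPKM in Acly-/- adipocytes against 9.67 ± 0.155 FPKM in Aclyf/f adipocytes (log2 fold change -0.48, SE 0.08, adjusted p = 0.000251). In preadipocytes it was 9.28 ± 0.998 FPKM without Acly against 11.6 ± 0.307 FPKM with it (log2 fold change -0.29, SE 0.08, adjusted p = 0.0117, and an adjusted p of 0.0506 without Acly-/- preadipocyte library 2). Hdac10 was higher in Acly-/- preadipocytes, at 9.70, 8.66 and 10.2 FPKM in Acly-/- preadipocytes, against 6.73, 6.18 and 6.59 FPKM in Aclyf/f preadipocytes. Its adipocyte levels were 8.36, 8.69 and 8.84 FPKM in Acly-/- adipocytes, against 9.79, 9.26 and 8.45 FPKM in Aclyf/f adipocytes. The preadipocyte groups of Hdac10 did not overlap (log2 fold change 0.49, SE 0.08, adjusted p = 0.000373) and its adipocyte groups did. The summed level of Hdac6, Hdac10 and Hdac11 was 19.7 ± 0.235 FPKM in Acly-/- adipocytes, 29.3 ± 0.340 in Aclyf/f adipocytes, 21.3 ± 1.61 in Acly-/- preadipocytes and 21.4 ± 0.0952 in Aclyf/f preadipocytes.

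Of the 7 sirtuins, 4 rose and 1, Sirt1, fell with differentiation of Acly-/- cells, while in Aclyf/f cells 6 rose and Sirt1 fell. Of all genes tested, 30.4% rose and 31% fell in Acly-/- cells, and 36.5% rose and 36% fell in Aclyf/f cells. Their summed FPKM was 93.9 ± 3.10 in Acly-/- adipocytes, 116 ± 8.48 in Aclyf/f adipocytes, 71.3 ± 8.47 in Acly-/- preadipocytes and 74.7 ± 2.87 in Aclyf/f preadipocytes. In Acly-/- adipocytes 3 sirtuins were lower and 1 higher, against 29.2% lower and 25.6% higher among all genes. Sirt3, the main deacetylase of mitochondrial proteins, had the largest log2 fold change of the 7 with differentiation in Aclyf/f cells. In Acly-/- cells those of Sirt2 (0.68) and Sirt5 (0.49) were larger than that of Sirt3 (0.385), and that of Sirt7 (0.389) was nearly equal to it. Sirt3 lies on chromosome 7 at 140857397 to 140882309. It stood at 4.93, 5.50 and 4.35 FPKM in Acly-/- adipocytes, against 11.7, 10.1 and 11 FPKM in Aclyf/f adipocytes, and at 3.29, 3.42 and 3.89 FPKM in Acly-/- preadipocytes, against 3.30, 2.61 and 2.81 FPKM in Aclyf/f preadipocytes. The Aclyf/f adipocyte libraries were the 3 highest, and the preadipocyte groups overlapped. Sirt3 was 2.22-fold lower in Acly-/- adipocytes (log2 fold change -1.01, SE 0.10, adjusted p = 2.33e-06). It rose 1.40-fold with differentiation in Acly-/- cells (log2 fold change 0.39, SE 0.10, adjusted p = 0.00497) and 3.77-fold in Aclyf/f cells (log2 fold change 1.61, SE 0.10, adjusted p = 5.51e-09).

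The start of Sirt3 lies 85 bases from that of Psmd13, a proteasome subunit gene transcribed the other way. Psmd13 averaged 49.4 ± 1.80 FPKM in Acly-/- adipocytes, 54.0 ± 4.68 in Aclyf/f adipocytes, 41.6 ± 3.07 in Acly-/- preadipocytes and 42.8 ± 1.57 in Aclyf/f preadipocytes. Its log2 fold changes for loss of Acly were -0.12 in adipocytes (adjusted p = 0.204) and -0.04 in preadipocytes (0.697). With differentiation Psmd13 rose by 0.25 in Acly-/- cells (adjusted p = 0.0141) and by 0.32 in Aclyf/f cells (0.00189). Exons of Psmd13 and Ric8a overlap 342 and 418 bases of Sirt3 exons on the other strand (5.73% and 6.998%), Rnaseh2c overlaps 426 bases of Kat5 (12.1%), the locus Gm44002 overlaps 594 bases of Hdac11 (15.4%), and the noncoding gene Gm26720 overlaps 3536 bases of Hdac4 (22.4%). The sources used here do not give how strand was handled, and reads of those stretches cannot be told apart.

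Sirt5, which removes succinyl and malonyl groups in mitochondria, was lower without Acly at both stages. It stood at 4.56, 5.15 and 5.32 FPKM in Acly-/- adipocytes, against 9.42, 9.60 and 9.60 FPKM in Aclyf/f adipocytes, and at 2.99, 3.83 and 3.07 FPKM in Acly-/- preadipocytes, against 4.63, 3.94 and 5.08 FPKM in Aclyf/f preadipocytes. The adipocyte groups lay far apart, and the preadipocyte groups did not overlap by a narrow margin. Sirt5 was 1.90-fold lower in Acly-/- adipocytes (log2 fold change -0.81, SE 0.10, adjusted p = 1.66e-05) and 1.38-fold lower in Acly-/- preadipocytes (log2 fold change -0.37, SE 0.10, adjusted p = 0.0103), where the adjusted p was 0.0517 without Aclyf/f preadipocyte library 3. It rose with differentiation by 0.49 (adjusted p = 0.000886) in Acly-/- cells and by 0.93 (adjusted p = 1.7e-06) in Aclyf/f cells. Sirt6, a nuclear deacetylase of histone H3 lysine 9, stood at 9.29, 7.79 and 7.74 FPKM in Acly-/- adipocytes, against 16.1, 12.5 and 13.0 FPKM in Aclyf/f adipocytes, and averaged 9.55 ± 1.71 FPKM in Acly-/- preadipocytes and 7.81 ± 1.12 FPKM in Aclyf/f preadipocytes. Sirt6 was 1.68-fold lower in Acly-/- adipocytes (log2 fold change -0.68, SE 0.13, adjusted p = 0.000819). It rose with differentiation in Aclyf/f cells by 0.75 (adjusted p = 0.000183), and its log2 fold change in Acly-/- cells was -0.18 (adjusted p = 0.265).

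Sirt1, the nuclear sirtuin known in mouse adipocytes as a repressor of PPARγ, was the sirtuin that fell with differentiation and stood higher without Acly. It stood at 6.13, 6.68 and 7.75 FPKM in Acly-/- adipocytes, against 4.52, 5.37 and 5.43 FPKM in Aclyf/f adipocytes, and at 8.63, 9.40 and 8.38 FPKM in Acly-/- preadipocytes, against 7.01, 6.66 and 7.64 FPKM in Aclyf/f preadipocytes. Every Acly-/- library lay above every Aclyf/f library of its stage. The log2 fold change for loss of Acly was 0.36 (adjusted p = 0.00681) in adipocytes and 0.28 (adjusted p = 0.0372) in preadipocytes, and with differentiation -0.32 (adjusted p = 0.0111) in Acly-/- cells and -0.41 (adjusted p = 0.00189) in Aclyf/f cells. At the same FPKM sum the adjusted p was 0.0531 in adipocytes and 0.211 in preadipocytes, and the preadipocyte call was also lost without Acly-/- libraries 1 or 2 (adjusted p = 0.0621 and 0.116) or Aclyf/f libraries 1 or 2 (0.0808 and 0.122). Without Acly-/- adipocyte library 1 the fall in Acly-/- cells had an adjusted p of 0.0569.

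Sirt2, a mainly cytoplasmic sirtuin and the most abundant of the 7, rose with differentiation in both genotypes. It stood at 48.6, 46.3 and 42.9 FPKM in Acly-/- adipocytes, against 52.8, 48.3 and 45.7 FPKM in Aclyf/f adipocytes, and at 24.0, 31.4 and 29.9 FPKM in Acly-/- preadipocytes, against 37.7, 39.6 and 35.4 FPKM in Aclyf/f preadipocytes. Adipocyte libraries lay above preadipocyte libraries, and Acly-/- preadipocytes lay below Aclyf/f preadipocytes (log2 fold change -0.40, SE 0.10, adjusted p = 0.005), whereas the adipocyte groups overlapped. With differentiation its log2 fold change was 0.68 (adjusted p = 3.74e-05) in Acly-/- cells and 0.37 (adjusted p = 0.00364) in Aclyf/f cells. Sirt4, a mitochondrial sirtuin, rose with differentiation in Aclyf/f cells by 0.63 (adjusted p = 0.000604), and its value in Acly-/- cells was 0.28 (adjusted p = 0.0727), called without Acly-/- adipocyte library 1 (0.37, adjusted p = 0.0436) or Acly-/- preadipocyte library 2 (0.40, adjusted p = 0.0181). Sirt7, the nucleolar sirtuin, rose by 0.39 (adjusted p = 0.0321) in Acly-/- cells and by 0.91 (adjusted p = 6.49e-05) in Aclyf/f cells. The Sirt7 call in Acly-/- cells was lost without Acly-/- adipocyte libraries 2 or 3 (adjusted p = 0.102 and 0.0770) and without Acly-/- preadipocyte library 1 (0.18, adjusted p = 0.153).

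**Figure D4:**
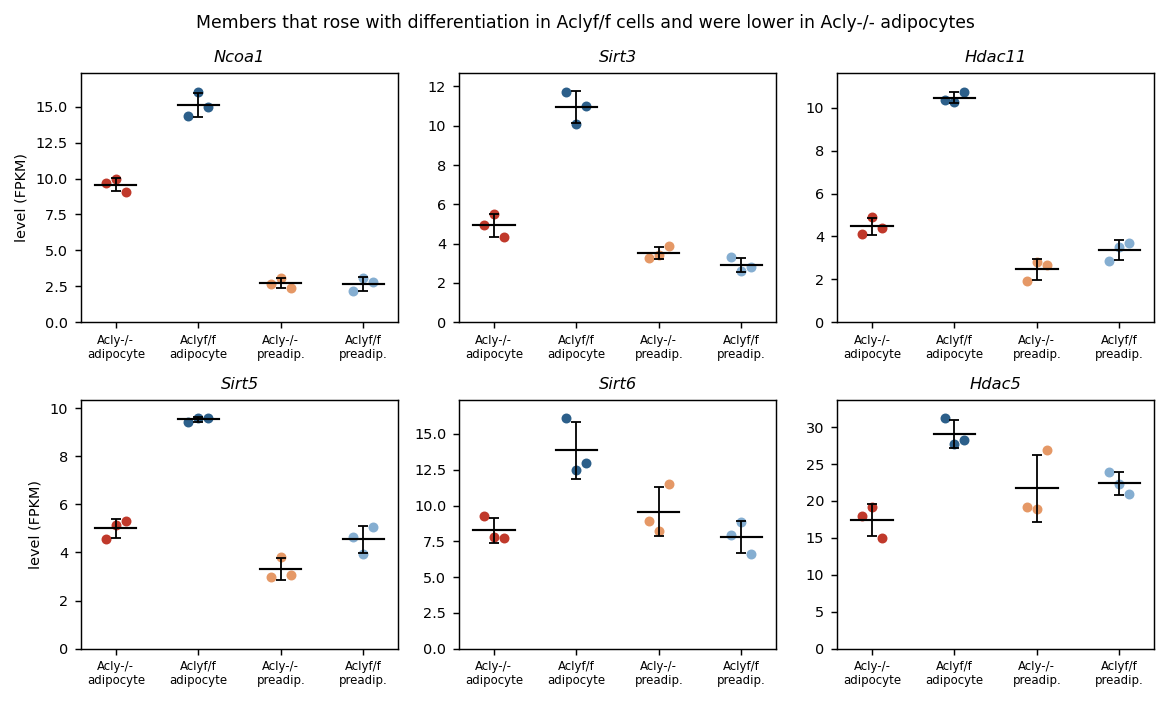
FPKM of Ncoa1, Sirt3, Hdac11, Sirt5, Sirt6 and Hdac5 in each library (points), with the group mean (line) and SD (bars, n = 3), all axes starting at 0. In each panel the 3 Aclyf/f adipocyte libraries lie above the 3 Acly-/- adipocyte libraries and above both preadipocyte groups.

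The acetyl readers Brd2 and Brd3, BET proteins whose paired bromodomains bind acetylated histones, moved in opposite directions on loss of Acly. Brd2, on chromosome 17 at 34112019 to 34122607, was higher without Acly at both stages. It stood at 88.3, 84.0 and 81.5 FPKM in Acly-/- adipocytes, against 69.5, 67.6 and 63.4 FPKM in Aclyf/f adipocytes, and at 99.3, 107 and 115 FPKM in Acly-/- preadipocytes, against 62.0, 64.8 and 64.8 FPKM in Aclyf/f preadipocytes. Every Acly-/- library lay above every Aclyf/f library. The difference was 1.27-fold in adipocytes (log2 fold change 0.34, SE 0.07, adjusted p = 0.00113) and 1.68-fold in preadipocytes (log2 fold change 0.74, SE 0.07, adjusted p = 2.26e-06). With differentiation Brd2 fell in Acly-/- cells by 0.34 (adjusted p = 0.000841), and its value in Aclyf/f cells was 0.06 (adjusted p = 0.428). Brd2 was the most abundant member in Acly-/- adipocytes and in Acly-/- preadipocytes, where it overlapped with Hdac1, whereas Hat1 was highest in Aclyf/f adipocytes, overlapping with Brd2, and Hdac1 in Aclyf/f preadipocytes.

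Brd3 was lower without Acly at both stages, at 11.7 ± 0.627 FPKM in Acly-/- adipocytes against 15.0 ± 0.748 FPKM in Aclyf/f adipocytes (log2 fold change -0.34, SE 0.07, adjusted p = 0.00101). In preadipocytes it averaged 15.4 ± 0.427 FPKM without Acly against 19.7 ± 0.311 FPKM with it (log2 fold change -0.34, SE 0.07, adjusted p = 0.00144). It fell with differentiation by 0.37 in Acly-/- cells and by 0.37 in Aclyf/f cells (adjusted p = 0.000346 and 0.000235). Brd2 is the more abundant of the pair, and the sum of both was 96.3 ± 4.03 FPKM in Acly-/- adipocytes, 81.8 ± 3.68 in Aclyf/f adipocytes, 123 ± 7.65 in Acly-/- preadipocytes and 83.6 ± 1.58 in Aclyf/f preadipocytes.

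The comparison of both differentiation changes asks which members responded differently without Acly. In all, 6 members rose with differentiation of Aclyf/f cells, were lower in Acly-/- than in Aclyf/f adipocytes and had a lower differentiation change without Acly: Ncoa1, Sirt3, Hdac11, Sirt5, Sirt6 and Hdac5. Taken singly, these conditions held for 36.5%, 29.2% and 26.4% of all genes tested. The share of all genes that met them together was not computed, so whether 6 is many is not known. All of them use the same Aclyf/f adipocyte libraries and are thus not independent. The gap in differentiation change, Acly-/- minus Aclyf/f, was -1.23 for Sirt3 (SE 0.14, adjusted p = 1.4e-05), -0.93 (adjusted p = 0.00128) for Sirt6, -0.74 (adjusted p = 0.00214) for Hdac11, -0.66 (adjusted p = 0.00771) for Hdac5, -0.63 (adjusted p = 0.00349) for Ncoa1 and -0.44 (adjusted p = 0.0206) for Sirt5. The Sirt5 gap had an adjusted p of 0.0546 without Acly-/- adipocyte library 1, 0.0501 without Acly-/- preadipocyte library 2 and 0.0562 without Aclyf/f preadipocyte library 2. In this set Ncoa1, Sirt3, Hdac11 and Sirt5 still rose with differentiation in Acly-/- cells, and Sirt6 and Hdac5 had uncalled values of -0.18 and -0.29. Adipoq, an adipocyte hormone gene, stood at 60.7 ± 1.24 FPKM in Acly-/- adipocytes, 544 ± 7.05 FPKM in Aclyf/f adipocytes, 2.99 ± 0.634 FPKM in Acly-/- preadipocytes and 3.13 ± 0.438 FPKM in Aclyf/f preadipocytes. Adipoq thus moves with genotype and stage alongside these 6 genes, and its part in their values was not tested. Other adipocyte markers differed to other degrees between Acly-/- and Aclyf/f adipocytes. Pparg (148 against 161 FPKM) and Lpl (984 against 1163 FPKM) differed less than Adipoq, and Cfd (18.6 against 272 FPKM) more.

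**Figure D5:**
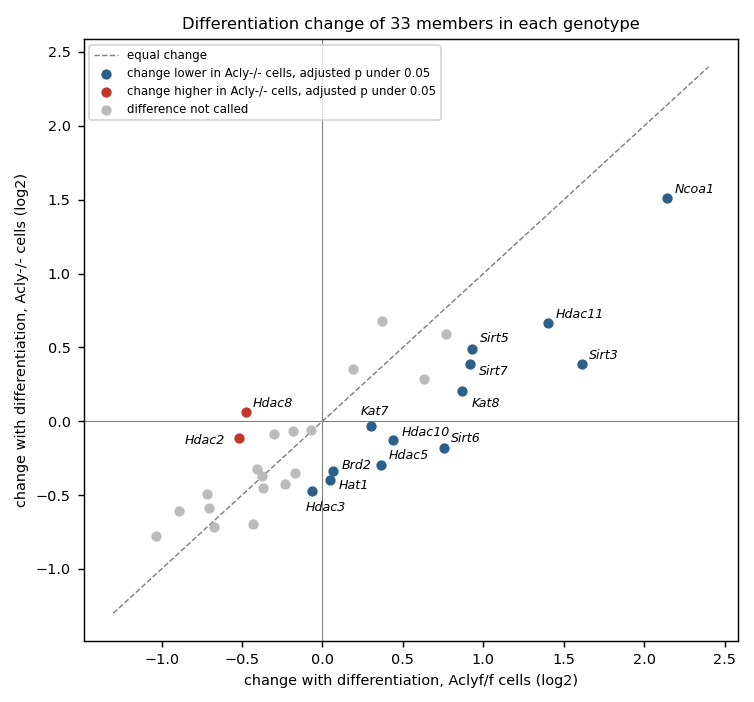
Log2 fold change with differentiation of the 33 tested members in Acly-/- cells (vertical axis) against Aclyf/f cells (horizontal axis), on the log2(FPKM + 1) scale; the dashed line marks equal change, and colour marks the 15 members whose change differed between genotypes. Below the line lie 13 of them, Sirt3 farthest with a gap of -1.23, and Hdac2 and Hdac8 lie above it.

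The other members whose differentiation change was lower without Acly were Hdac10 (-0.56 (adjusted p = 0.00143)), Hdac3 (-0.41 (adjusted p = 0.00433)), Brd2 (-0.40 (adjusted p = 0.00447)), Kat7 (-0.33 (adjusted p = 0.0119)), Hat1 (-0.44 (adjusted p = 0.0223)), Kat8 (-0.66 (adjusted p = 0.0474)) and Sirt7 (-0.52 (adjusted p = 0.0474)). For Hdac10 and Brd2 the Acly-/- preadipocytes stood higher than the Aclyf/f preadipocytes at the outset, and for Hdac3 and Hat1 the Acly-/- adipocytes stood lower. The calls of Kat8 and Sirt7 were lost in 15 and 16 of 19 alternatives, leaving out Acly-/- preadipocyte library 3 among them, with adjusted p-values of 0.0548 to 0.118 for Kat8 and 0.0503 to 0.113 for Sirt7 in the leave-one-out fits that lost them, and that of Hat1 in 7 (up to 0.0829). That of Kat7 was lost at the same FPKM sum (adjusted p = 0.0803). Hdac2 (0.40 (adjusted p = 0.0187)) and Hdac8 (0.54 (adjusted p = 0.0115)) had a higher change without Acly, and both stood lower in Acly-/- than in Aclyf/f preadipocytes. Without the filter on low values Hdac2 had an adjusted p of 0.0571, and at the same FPKM sum 0.0508.

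Partner genes of these enzymes were counted in 4 lists. The lists were chosen with earlier results of these data known, so their shares beside those of all genes are not free of that choice. Of 31 tested subunits of deacetylase complexes, none was higher and 13 were lower in Acly-/- adipocytes, and 1 was higher and 10 lower in Acly-/- preadipocytes. Those are 0% and 41.9% of the list in adipocytes, against 25.6% higher and 29.2% lower of all genes tested, and 3.23% and 32.3% in preadipocytes, against 19.7% and 22.4% of all genes. The median log2 fold change of that list was -0.20 in adipocytes and -0.12 in preadipocytes, against -0.02 and -0.01 over all genes tested. The strongest falls in Acly-/- adipocytes were Rcor2, a CoREST scaffold (-0.98), and Mta3, a NuRD subunit (-0.83). In Acly-/- preadipocytes they were the NuRD helicase Chd3 (-1.09) and Mta3 (-0.80), and the gene that rose was the NuRD subunit Mbd3 (0.66). With differentiation 5 rose and 15 fell in Acly-/- cells (16.1% and 48.4%, against 30.4% and 31% of all genes), led by Tbl1x (0.85) and Rcor3 (0.66) upward and Sap30 (-0.94) and Kdm1a (-0.50) downward. In Aclyf/f cells 9 rose and 11 fell (29% and 35.5%, against 36.5% and 36% of all genes), led by Rcor2 (0.91) and Ing2 (0.79) upward and Chd3 (-1.37) and Arid4a (-0.75) downward. The differentiation change differed between genotypes for 11 of them, higher without Acly in 4, led by Chd3 (0.98) and Sap18 (0.54), and lower in 7, led by Rcor2 (-0.79) and Gatad2b (-0.73). Those are 12.9% and 22.6% of the list, against 23.7% and 26.4% of all genes.

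Of 36 subunits of acetyltransferase complexes, 8 were higher and 12 lower in Acly-/- adipocytes, and 10 were higher and 4 lower in Acly-/- preadipocytes, with medians of -0.04 and 0.09, against -0.02 and -0.01 over all genes. Those are 22.2% and 33.3% of the list in adipocytes, against 25.6% and 29.2% of all genes, and 27.8% and 11.1% in preadipocytes, against 19.7% and 22.4% of all genes. In adipocytes the leading genes were Epc1 (0.57) and Meaf6 (0.56), both of NuA4, upward and Ing4 (-0.63) and the SAGA subunit Taf6l (-0.61) downward. In preadipocytes they were the SAGA subunit Ccdc101 (Sgf29, 0.85) and Epc1 (0.65) upward and Jade1 (-0.64) and Supt20 (-0.43) downward. With differentiation 5 rose and 8 fell in Acly-/- cells (13.9% and 22.2%, against 30.4% and 31% of all genes), led by Jade1 (1.00), Jade2 (0.84), Trrap (-0.74) and Ep400 (-0.65). In Aclyf/f cells 11 rose and 13 fell (30.6% and 36.1%, against 36.5% and 36% of all genes), led by Ccdc101 (1.90), the SAGA subunit Supt3 (1.47), Meaf6 (-0.52) and Kansl1 (-0.51). The change was higher without Acly for 3 and lower for 10 (8.33% and 27.8%, against 23.7% and 26.4% of all genes), with Meaf6 (0.47) and Supt20 (0.44) at one end and Ccdc101 (-1.15) and Supt3 (-1.02) at the other.

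Among 24 tested genes for other bromodomain and YEATS readers, 4 were higher and 5 lower in Acly-/- adipocytes and 3 higher and 5 lower in Acly-/- preadipocytes. Those are 16.7% and 20.8% of the list in adipocytes, against 25.6% and 29.2% of all genes, and 12.5% and 20.8% in preadipocytes, against 19.7% and 22.4% of all genes. Smarca2, a SWI/SNF helicase, and Yeats4 led the rises in adipocytes (0.67 and 0.58), and Atad2 and Brwd1 the falls (-0.82 and -0.37). In preadipocytes Brd9 (0.31) and Trim28 (0.27) led upward and Phip (-0.55) and Zmynd8 (-0.42) downward. With differentiation 4 rose and 12 fell in Acly-/- cells (16.7% and 50%, against 30.4% and 31% of all genes), and 4 rose and 16 fell in Aclyf/f cells (16.7% and 66.7%, against 36.5% and 36% of all genes). The median log2 fold change was -0.19 and -0.32, against 0.00 and -0.00 over all genes. Trim24 led upward in both (1.15 in Acly-/- cells and 0.89 in Aclyf/f cells), followed by Smarca2 in Acly-/- cells (0.43) and Baz2a in Aclyf/f cells (0.61). Mllt1 led downward in both (-0.94 and -1.12), followed by Mllt3 in Acly-/- cells (-0.93) and Bptf in Aclyf/f cells (-0.88). The change was higher without Acly for 6, led by Zmynd8 (0.85) and Phip (0.77), and lower for 5, led by Atad2 (-0.72) and Mllt3 (-0.39), which is 25% and 20.8% of the list, against 23.7% and 26.4% of all genes.

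NAD+ is the cosubstrate of sirtuins, and 13 of 18 listed genes of its supply and use were tested. With differentiation 6 rose and 2 fell in Acly-/- cells (46.2% and 15.4%, against 30.4% and 31% of all genes) and 10 rose and 1 fell in Aclyf/f cells (76.9% and 7.69%, against 36.5% and 36% of all genes). Nampt, the rate-limiting enzyme of NAD+ salvage, rose most, to 455 FPKM in Acly-/- adipocytes against 50.3 FPKM in Acly-/- preadipocytes (3.16 on the log2 scale) and to 419 FPKM in Aclyf/f adipocytes against 36.4 FPKM in Aclyf/f preadipocytes (3.49). Next came Nnmt, which methylates nicotinamide, in Acly-/- cells (1.24) and Nudt12 in Aclyf/f cells (1.73), while Naprt (-0.51) and Parp1 (-0.16) fell in Acly-/- cells and Parp1 (-0.49) in Aclyf/f cells. In Acly-/- adipocytes 2 were higher, Parp3 (0.56) and Nnmt (0.51), and 6 were lower, led by Naprt (-1.22) and Nudt12 (-1.003), which is 15.4% and 46.2% of the list, against 25.6% and 29.2% of all genes. In Acly-/- preadipocytes 4 were higher, led by Nmnat1 (0.89) and Nampt (0.45), and 3 lower, led by Naprt (-0.76) and Nnmt (-0.47), which is 30.8% and 23.1%, against 19.7% and 22.4% of all genes. The differentiation change was higher without Acly for 3, led by Nnmt (0.98) and Parp1 (0.34), and lower for 7, led by Nadk (-1.14) and Nmnat1 (-1.03), which is 23.1% and 53.8%, against 23.7% and 26.4% of all genes.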

How the data were processed

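The 12 RNA sequencing libraries fall into 4 groups of 3, taken from the labels. The deposited values are FPKM per gene, 1 column per library, per the file headers; Bowtie2 2.2.6, Cufflinks 2.2.1, bcl2fastq and the build mm10 appear, with no role, per the submitters' processing notes, and the gene annotation, the table's filter and strand handling were not given in the sources used here. Genes that reached 1 FPKM in 3 or more libraries were tested (11777; 12564 were not), as log2(FPKM + 1), with limma 3.58.1 in R 4.3.3 (4 group means, variance trend, Benjamini-Hochberg over all genes tested, called at an adjusted p under 0.05). That scale understates changes of low genes; folds are ratios of mean FPKM. The method was tested on simulated data in which far fewer genes changed than were called here. That test thus does not measure how often calls are false in these data. Depth is an estimate, made from steps of 1 fragment in values under 0.3 FPKM, with GENCODE transcripts of at least 2000 bases. Start positions were raised by 1 to count from 1. Python 3.11.15, pandas 2.3.3, numpy 2.4.6 and matplotlib 3.10.9 made tables and figures. Same-numbered Acly-/- adipocyte and Acly-/- preadipocyte libraries deviated weakly together from their group means (r = 0.123, 0.147 and 0.124). In no other comparison of 2 groups did all 3 pairs exceed 0.1. The labels state no pairing, and the main fit treated no libraries as pairs, so a replicate block was run only as an alternative. The members, the partner lists and the naming rule (up to 4 called members per direction and comparison with every library's value, up to 2 per partner list) were chosen with earlier results of these data known. Alternatives were a pseudocount of 0.1, no filter, 3 other scalings, no variance trend, the compared groups alone, a replicate block and each library left out.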

Additional observations from a re-analysis of the deposited data

Results flagged for a closer look

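For 15 members the change with differentiation differed between genotypes by the interaction term of the limma fit (adjusted p under 0.05), which is what placed them here. The differences, Acly-/- minus Aclyf/f on the log2(FPKM + 1) scale, were Kat7 -0.33, Kat8 -0.66, Hat1 -0.44, Ncoa1 -0.63, Hdac2 0.40, Hdac3 -0.41, Hdac8 0.54, Hdac5 -0.66, Hdac10 -0.56, Hdac11 -0.74, Sirt3 -1.23, Sirt5 -0.44, Sirt6 -0.93, Sirt7 -0.52 and Brd2 -0.40, the value following each symbol. For all 13 genes with a negative value the differentiation change was lower in Acly-/- cells than in Aclyf/f cells. No explanation was tested for any of them.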

How the results depend on the processing

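The number of genes called moved by at most 1.5 times under every alternative run, in all 5 comparisons. Counts of called members did so too, except the following. At the same FPKM sum, 2 members were higher in Acly-/- adipocytes (5 as deposited) and 3 in Acly-/- preadipocytes (6 as deposited). Members lower in Acly-/- preadipocytes numbered 9, and 5 to 9 on leaving out 1 library. Members whose differentiation change was higher without Acly numbered 2, but 1 without the filter, 5 after quantile normalization, 1 at the same FPKM sum and 2 to 4 on leaving out 1 library. Of the called members, 12 of 16 for Acly loss in adipocytes, 7 of 15 for Acly loss in preadipocytes, 20 of 22 for differentiation of Acly-/- cells, 24 of 26 for differentiation of Aclyf/f cells and 9 of 15 for the difference between both kept their call under every alternative. No called member changed direction; 19 uncalled values near 0 did, given here as log2 fold changes, a range being that on leaving out 1 library. For Acly loss in adipocytes the values were Ep300 -0.0874 to 0.0609 and 0.0268 after quantile normalization, Crebbp -0.0999 to 0.0316 and 0.0129 after quantile normalization, Hdac1 -0.0914 to 0.0513 and -0.0786 at the same FPKM sum, Hdac4 -0.0271 to 0.18. For Acly loss in preadipocytes the values were Kat6a -0.0216 to 0.12 and -0.0395 at the same FPKM sum, Ncoa1 -0.0844 to 0.11 and -0.0396 at the same FPKM sum, Hdac5 -0.22 to 0.0264, Ep300 -0.11 to 0.0198, Hat1 -0.13 to 0.0417, Taf1 -0.17 to 0.00984. For differentiation of Acly-/- cells the values were Ep300 -0.12 to 0.0331, Kat7 -0.0718 to 0.013, Hdac8 -0.0413 to 0.12. For differentiation of Aclyf/f cells the values were Hat1 -0.0113 to 0.13 and -0.0946 after quantile normalization, Brd2 -0.0638 after quantile normalization. For the difference between both differentiation changes the values were Brd3 -0.0382 to 0.0337 and -0.00303 with a pseudocount of 0.1, Kat2b -0.16 to 0.0492 and 0.0169 after quantile normalization, Ep300 -0.0488 to 0.10, Kat5 -0.18 to 0.0282. The causes were not tested. The replicate block ended 5 calls, with adjusted p-values of 0.0509 for Taf1 in adipocytes, 0.0552 for Kat8 and 0.0546 for Hdac1 in preadipocytes, and 0.0664 for Kat8 and 0.0659 for Sirt7 in the difference of both changes. It changed no other member's call. With differentiation of Acly-/- cells, where same-numbered libraries deviated weakly together, 6954 genes were called with the block and 7232 without it. Between the other groups r was -0.414 to 0.135. Over all groups, 0 of 12 libraries were closest to their own number, so whether the numbers pair any libraries is not known. At these depths Hdac9 rests on few fragments, and without the filter its adjusted p with differentiation of Acly-/- cells was 0.0188.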
